A study of Salmo salar with 57 samples.

Results

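Sugar metabolism and respiration were followed in the distal intestine of Atlantic salmon through 26 array probes, 11 for respiration (oxidative phosphorylation) and 15 for sugar metabolism (glycolysis and the fructose, mannose and nucleotide sugar pathways). The probes were chosen by the study's own list of genes in KEGG pathways. That list holds probes which differed between a diet and the fish meal control in these same fish, so the differences between diets are given here as a description and carry no test. Probes under the lysosome or peroxisome pathways were left out, which removed 2 subunits of the proton pump V-ATPase. The 26 probes are part of 14841 probes on the array, and all 26 were among the 12065 bright enough to be fitted.

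Each of the 57 samples was the distal intestine of 1 fish after 4 weeks on 1 of 6 diets, hybridized to a one-colour Agilent array. The FM diet was based on fish meal and was fed to 10 fish. In the SBM diet soybean meal took the place of part of the fish meal, and 7 of these fish were measured because the study left out 1 tank. The other diets held the same share of soybean meal plus a microbial ingredient, namely the yeasts *Candida utilis* (CU), *Kluyveromyces marxianus* (KM) and *Saccharomyces cerevisiae* (SC) or the microalga *Chlorella vulgaris* (CV), with 10 fish each. All diets with a microbial ingredient thus also contained soybean meal and less fish meal than SBM. In the labels a diet is only a letter, and each letter was matched to its diet by the histology scores that the study drew for each fish and by the only group of 7, so histology is not compared between diets. The tank of a fish is not in the labels, and fish are treated as independent, although fish of 1 diet shared tanks. Levels are log2 normalized intensities, which can be compared between fish for a probe but not between probes. A gene was called in a diet when the adjusted nested F-test passed 0.05 and the log2 fold change (log2 FC) against FM was at least 0.4 in size.

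Cells break glucose down to pyruvate in glycolysis, which begins when a hexokinase adds a phosphate to glucose. The pace of glycolysis is set in large part at phosphofructokinase, which is activated by fructose-2,6-bisphosphate, a signal made and removed by the PFKFB enzymes. Electrons from the breakdown of fuel then pass along complexes I, III and IV of the mitochondrial inner membrane, and the proton gradient they build drives ATP synthase. Fucose and its activated form GDP-fucose belong to a side branch of sugar metabolism that feeds the fucosylated glycans on intestinal epithelium and mucus.

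Defining markers of the intestinal epithelium were present in all fish. The mean log2 level of 8 enterocyte probes (APOA1, APOA4, FABPI, K1C18 and S15A1) was 12.54 in FM, 12.19 in SBM and 11.95 in SC, and between 12.56 and 12.63 in the other diets. This mean covers opposite moves, since in SBM the 3 K1C18 probes were called higher (0.56 to 1.09) while both APOA4 probes (−2.33 and −0.62), FABPI (−1.32) and S15A1 (−0.76) were called lower. The 3 smooth muscle probes (DESM and MYH11) averaged 9.63 in FM, 9.75 in SBM, 9.73 in CU, 10.19 in CV, 10.38 in KM and 10.44 in SC, with a range over fish of 8.86 to 10.55 in FM and 10.07 to 10.94 in SC. Marker probes carry a gene name here only if they were in the study's lists of differing probes, so they too were chosen on these fish. Their means are therefore not unselected readings of cell content. Since the tissue was measured whole, fewer cells of a type and less RNA per cell cannot be told apart.

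Among the sugar genes F263 and HXK2 had the largest differences from FM, and both were highest in fish fed SBM or SC. Among the respiration genes COX42 was called lower than in FM in SBM, SC, KM and CU, and its log2 FC in CV (−0.37) was not called. The subunits of complexes I and III called in SBM (CY1, QCR2, NDUA5 and NU3M) were all higher, in SC CY1 and NU3M were higher and NDUV2 and NU6M lower, in CV NU3M and NDUV2 were higher, and in KM and CU none was called. In fish fed SBM 7 of the 11 respiration genes were called higher and 1 lower, and 9 of the 15 sugar genes were called higher and 1 lower, where 13.7% of all fitted probes were called higher and 8.62% lower. In SC the counts were 3 higher and 3 lower for respiration and 8 higher and 3 lower for sugar, beside 13.2% and 9.28% of all probes. KM gave 1 higher and 1 lower for respiration and 6 higher for sugar, beside 9.3% and 1.86%. In CU a single gene was called, COX42, which was lower, beside 2.02% of all probes called higher and 3.34% lower. CV gave 5 higher respiration genes and 5 higher sugar genes and none lower, beside 9.99% and 0.605%. Since the genes were selected on these contrasts, nothing is read from the counts against these shares.

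The median log2 FC was 0.48 over the respiration genes and 0.68 over the sugar genes in SBM, 0.36 and 0.57 in SC, 0.27 and 0.49 in KM, 0.20 and 0.27 in CU, and 0.34 and 0.53 in CV. Over all fitted probes the median was 0.09 in SBM, 0.06 in SC, −0.01 in CU, 0.14 in KM and 0.17 in CV. How far all probes shifted in SBM, KM and CV depended on the scaling. With arrays scaled to the 75th percentile the all-probe medians were −0.08 in SBM, −0.03 in KM and −0.02 in CV. The medians of the members in KM and CV were lower as well, 0.21 in KM and 0.23 in CV for sugar and 0.22 in CV for respiration. In SBM the member medians were then 0.48 for respiration and 0.58 for sugar. Relative to the median of all probes in the diet, 19 of the 26 genes were above it in SBM, 20 in SC, 20 in KM, 18 in CU and 21 in CV. Under 75th percentile scaling the respiration calls in SC were 1 higher and 3 lower, those in KM 2 lower, and none was called in CV. The sugar calls were then 3 higher in KM and 2 higher and 1 lower in CV. In SBM this scaling called 6 respiration genes higher and 1 lower, and 7 sugar genes higher and 1 lower. Over all 12065 probes it called 1243 higher and 1769 lower in SBM, and 1207 and 1392 in SC. The all-probe counts were 400 and 526 in KM and 252 and 323 in CV. With the all-probe median subtracted instead, the respiration calls were 1 higher and 3 lower in SC and 1 higher and 1 lower in CV. The sugar calls in SC were then 5 higher and 3 lower. Over all probes this called 1159 higher and 1247 lower in SC, and 235 and 313 in CV.

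**Figure D1:**
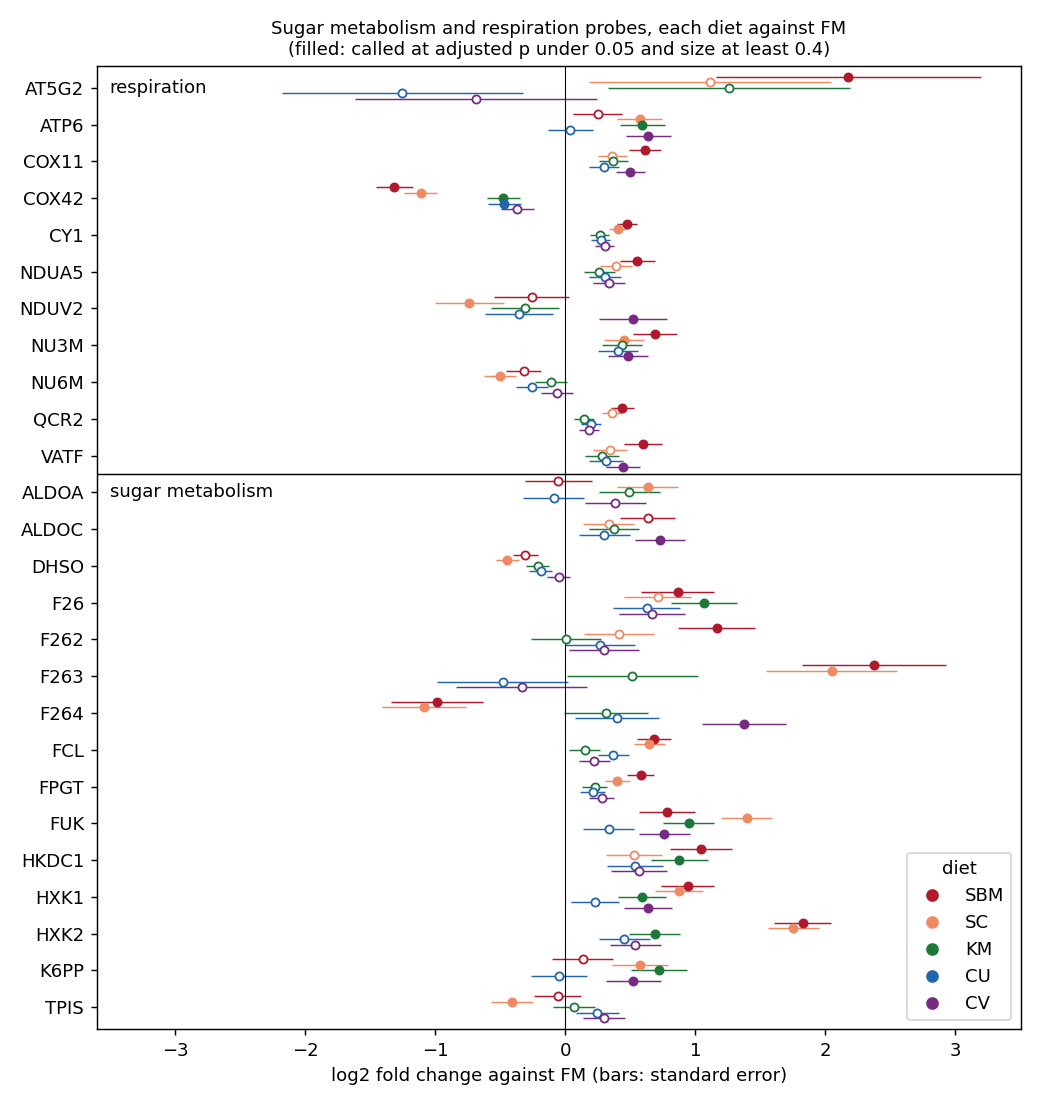
The log2 fold change against FM (horizontal axis, bars show the standard error) of each of the 26 genes in SBM, SC, KM, CU and CV, with called values filled. F263 and HXK2 reach 2.37 and 1.83 in SBM, COX42 lies at −1.31, and in CU only COX42 is filled.

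HXK2, hexokinase 2 (probe Ssa_S31991813), separated the fish fed SBM from those fed FM completely. Its level lay between 6.42 and 7.46 in FM (median 7.13), between 8.15 and 9.17 in SBM (median 8.92) and between 7.38 and 9.44 in SC (median 8.99). Every SBM fish and 9 of the 10 SC fish were above the highest FM fish. In KM the level ran from 7.17 to 8.12 (median 7.75), in CU from 6.87 to 8.23 (median 7.35) and in CV from 7.14 to 8.44 (median 7.39), with 7, 4 and 4 fish above the highest FM fish. The log2 FC against FM was 1.83 ± 0.218 in SBM, 1.75 ± 0.197 in SC and 0.69 ± 0.197 in KM (± SE). A second HXK2 probe, whose name derives from rainbow trout, differed from FM by 1.5 ± 0.20 in SBM, 1.55 ± 0.18 in SC and 0.58 in KM, and it followed the first one between fish of the same diet (Pearson r = 0.89 over 57 fish).

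The other hexokinases were measured at lower signal. HXK1, hexokinase 1, was above every FM fish in all 7 SBM fish and was called higher in SBM, SC, KM and CV, with a log2 FC of 0.94 ± 0.203, 0.87 ± 0.184, 0.59 ± 0.184 and 0.64 ± 0.184. HKDC1, a putative hexokinase, was called higher in SBM (1.04 ± 0.238) and KM (0.88 ± 0.216) and differed by 0.53 to 0.56 in the other diets. With normexp background correction, whose offset of 50 is added to every intensity and so draws dim probes toward no difference, HXK1 differed by between 0.11 and 0.19 in the diets where it was called and HKDC1 by 0.27 in SBM and 0.23 in KM, and neither was called. HXK2 then differed by 1.16 in SBM and 1.12 in SC and was still called in both.

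The PFKFB genes went different ways. F263 (probe Ssa_DW553532), the inducible kinase type in mammals, had the largest log2 FC of all members, 2.37 ± 0.553 in SBM and 2.05 ± 0.502 in SC. Its level lay between 3.73 and 8.57 in FM (median 5.30), between 5.70 and 8.99 in SBM (median 7.97) and between 4.44 and 9.82 in SC (median 8.01). FM fish 6 stood at 8.57 and the next highest FM fish at 5.89. The groups overlapped even apart from FM fish 6, since the lowest SBM and SC fish were below 5.89. In KM the level ran from 4.45 to 6.55 (median 6.21), in CU from 3.38 to 6.39 (median 4.84) and in CV from 3.42 to 6.50 (median 4.97). Of the CU values 2 were imputed. Without FM fish 6 the log2 FC of F263 was 2.73 in SBM and 2.40 in SC, and with normexp correction it was 0.99 in SBM, still called. A second F263 probe was 0.73 higher than FM in SBM, 0.31 in SC and 0.47 in KM, and only its SBM value was called.

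F264, a further PFKFB form, was lower than FM in SBM and SC and higher in CV. Its level lay between 8.88 and 10.26 in FM (median 9.69), between 7.65 and 9.93 in SBM (median 8.31) and between 8.01 and 9.38 in SC (median 8.48). In CV it ran from 9.12 to 12.41 (median 11.07), and 9 of 10 CV fish were above the highest FM fish. KM ran from 8.82 to 10.94 (median 10.17) and CU from 8.21 to 11.43 (median 9.96), both around the FM range. The log2 FC was −0.99 ± 0.356 in SBM, −1.08 ± 0.323 in SC and 1.38 ± 0.323 in CV. The value in CV was 0.81 among fish scanned on the first day and 1.78 among those scanned on the second.

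The remaining PFKFB probes were low in signal. F262 was called higher in SBM only (1.16 ± 0.296), and 1 CU fish stood at 9.14 against 7.16 for the next. F26, an unnumbered form, was called higher in SBM (0.86 ± 0.281) and KM (1.07 ± 0.255) and differed by 0.63 to 0.71 in the others. The KM value held 1 fish at 8.68, with the next at 6.71. F26 lost its call in SBM when SBM fish 5 or CV fish 7 was left out. With normexp correction F262 differed by 0.50 in SBM, still called, and F26 by 0.26 in SBM and 0.37 in KM, no longer called.

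**Figure D2:**
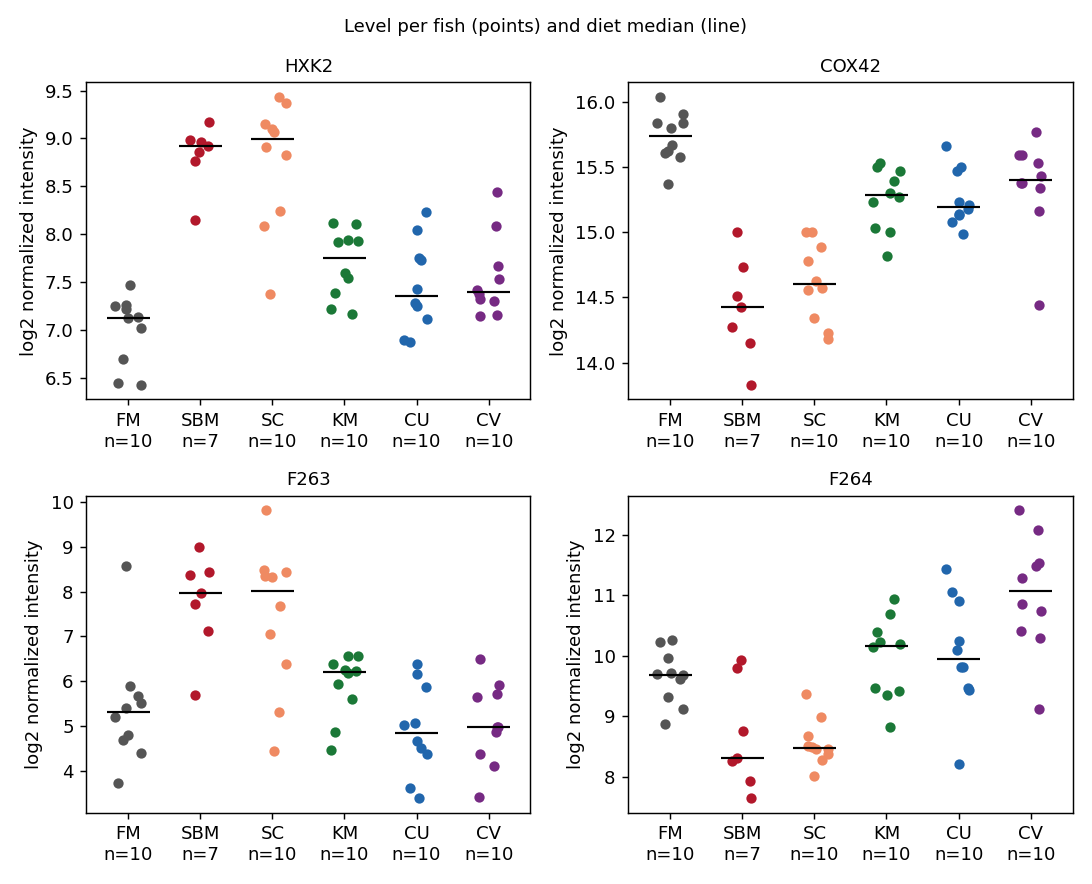
Log2 normalized intensity (vertical axis) of HXK2, COX42, F263 and F264 in each fish (points) by diet, with the diet median as a line. HXK2 in SBM (8.15 to 9.17) does not overlap FM (6.42 to 7.46), COX42 in SBM and SC lies below FM, and FM fish 6 stands apart for F263 at 8.57.

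Enzymes further down glycolysis differed less. K6PP, a phosphofructokinase, was called higher in SC (0.57 ± 0.214), KM (0.72 ± 0.214) and CV (0.53 ± 0.214), and ALDOA, aldolase A, in SC (0.64 ± 0.235). A second K6PP probe went the other way in SC, at −0.66 ± 0.11, and a second ALDOA probe was called in SBM (0.48 ± 0.11) and not in SC (0.38 ± 0.10), so the probes of these genes disagree. ALDOC, aldolase C, was called in CV (0.73 ± 0.194, but 0.22 and not called with normexp), and TPIS, which interconverts the triose phosphates, was lower in SC (−0.41 ± 0.164). The TPIS call in SC was lost without FM fish 6. DHSO, sorbitol dehydrogenase, which turns sorbitol into fructose, was lower in SC (−0.44 ± 0.088).

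Genes of GDP-fucose synthesis were mostly higher. FUK, fucose kinase, which starts the salvage of free fucose, lay between 10.22 and 11.62 in FM (median 10.93), between 11.17 and 12.26 in SBM (median 11.61) and between 11.93 and 12.63 in SC (median 12.27). Every SC fish was above every FM fish. KM ran from 11.32 to 12.36 (median 11.83), CU from 10.37 to 12.15 (median 11.15) and CV from 11.08 to 12.51 (median 11.64), and each of these overlapped FM. The log2 FC of FUK was 0.78 ± 0.215 in SBM, 1.39 ± 0.195 in SC, 0.95 ± 0.195 in KM and 0.76 ± 0.195 in CV. FPGT, the next step of salvage, had every SBM and every SC fish above every FM fish, with a log2 FC of 0.58 ± 0.106 and 0.40 ± 0.097. FCL, which completes GDP-fucose from GDP-mannose, was called higher in SBM (0.68 ± 0.131) and SC (0.65 ± 0.119), again with all 7 SBM fish above FM.

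In respiration, COX42 (probe Ssa_GRASP209736785), isoform 2 of cytochrome c oxidase subunit 4 in complex IV, separated both SBM and SC from FM. Its level lay between 15.37 and 16.04 in FM (median 15.74), between 13.83 and 15 in SBM (median 14.43) and between 14.18 and 15 in SC (median 14.60). Every SBM and every SC fish was below every FM fish. KM ran from 14.82 to 15.53 (median 15.29), CU from 14.99 to 15.66 (median 15.20) and CV from 14.44 to 15.77 (median 15.41), with 6, 7 and 3 fish below the lowest FM fish. The log2 FC was −1.31 ± 0.141 in SBM, −1.11 ± 0.128 in SC, −0.48 ± 0.128 in KM and −0.47 ± 0.128 in CU. In CV it was −0.37 ± 0.128 and not called, close to the values in KM and CU. Relative to the all-probe median of the diet, COX42 stood at −0.53 in CV, −0.61 in KM and −0.46 in CU. None of the member spots was saturated on any array. COX11, a copper chaperone for the assembly of the same complex, went the other way, with a log2 FC of 0.61 ± 0.123 in SBM and 0.50 ± 0.112 in CV and all 7 SBM fish above FM.

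Complex III and VATF, the 1 member from the proton pump, showed smaller differences than COX42. CY1, cytochrome c1, was called higher in SBM (0.48 ± 0.079) and SC (0.41 ± 0.072), and QCR2, a core subunit, in SBM (0.44 ± 0.086). VATF, subunit F of the V-ATPase that acidifies cell compartments, was called in SBM (0.60 ± 0.144) and CV (0.45 ± 0.130). QCR2 is also among the members just inside the limit on the log2 FC, whose largest value in any diet was 0.41 for TPIS, 0.44 for QCR2 and 0.44 for DHSO. Left out by the rule, the V-ATPase subunit VPP2 was called higher in all 5 diets, by 1.64 ± 0.208 in SBM and 0.74 ± 0.189 in CU, and VPP3 was lower in SBM (−0.51 ± 0.147) and SC (−0.51 ± 0.133).

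Over all fitted probes, 7.92% had every SBM fish on 1 side of every FM fish and 4.66% every SC fish. Among the members this held for 7 in SBM (HXK1, HXK2, FCL, FPGT, COX11, VATF and COX42) and for 3 in SC (FUK, FPGT and COX42). The rule used these contrasts, so the shares are given as background only.

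The genes of the mitochondrial genome did not move together. NU3M, subunit 3 of complex I, lay between 7.29 and 8.47 in FM (median 7.74), between 7.67 and 8.85 in SBM (median 8.70) and between 7.62 and 8.62 in SC (median 8.30). KM ran from 7.52 to 8.68 (median 8.26), CU from 7.67 to 8.65 (median 8.25) and CV from 7.74 to 8.81 (median 8.32). All diets overlapped FM, and NU3M was called higher in SBM (0.69 ± 0.170), SC (0.46 ± 0.154) and CV (0.48 ± 0.154), the SC call being lost without CV fish 7. NU6M, subunit 6 of the same complex, was lower in SC, between 8.86 and 9.88 (median 9.16) against 9.16 to 10.37 in FM (median 9.75). It ran from 9.14 to 9.72 in SBM (median 9.34), from 9.12 to 9.99 in KM (median 9.64), from 8.92 to 9.80 in CU (median 9.47) and from 9.20 to 9.95 in CV (median 9.67). Its call in SC (−0.50 ± 0.123) was the only one, and 5 of 10 SC fish were below the lowest FM fish.

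ATP6, subunit a of ATP synthase, had a weak signal. It lay between 3.98 and 5.49 in FM (median 4.74, with the lowest value imputed), between 4.44 and 5.31 in SBM (median 4.88) and between 4.28 and 5.80 in SC (median 5.24). KM ran from 4.51 to 5.85 (median 5.29), CU from 4.21 to 5.29 (median 4.59) and CV from 4.77 to 6.12 (median 5.21). Every diet overlapped FM. The log2 FC was 0.57 ± 0.173 in SC, 0.59 ± 0.173 in KM and 0.64 ± 0.173 in CV, and with normexp correction it was 0.08 to 0.10 in the same diets. Between fish of the same diet ATP6, NU3M and NU6M were hardly related, since ATP6 and NU3M correlated at r = 0.18, ATP6 and NU6M at r = 0.04 and NU3M and NU6M at r = −0.03 over 57 fish.

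AT5G2 (probe Ssa_S35522892), the lipid-binding subunit c of ATP synthase, fell into separate bands within diets. In 17 fish its level lay between 5.27 and 7.10 (median 6.49) and in the other 40 between 10.27 and 12.48 (median 11.29), with no fish in between. This empty interval of 3.17 log2 units was the 24th widest among the 12065 probes, and the spread within diets, an SD of 2.14, was the 16th largest. The lower band held 3 of 10 fish in FM, 0 of 7 in SBM, 2 of 10 in SC, 1 of 10 in KM, 6 of 10 in CU and 5 of 10 in CV. It held 8 fish of the first scan day and 9 of the second, on 8 of the 9 slides, and every spot in both bands passed the signal criteria. Within the upper band the diet medians were close, between 10.98 in FM and 11.43 in SBM. The mean differences of AT5G2, such as 2.18 ± 1.02 in SBM, which was called, and −1.25 ± 0.929 in CU, which was not, thus move with the number of fish in each band. In SC the difference was −1.17 on the first scan day and 2.83 on the second.

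NDUV2 and NDUA5 are nuclear subunits of complex I. NDUV2 had a smaller empty interval, from 7.94 to 8.58, which was only the 1284th widest among the 12065 probes. Above it lay 10 fish. These were 5 CV fish, 2 FM fish, 1 fish each in SBM, KM and CU and no SC fish. Its level ran from 7.28 to 8.97 in FM (median 7.63), from 6.84 to 9.13 in SBM (median 7.37) and from 6.74 to 7.57 in SC (median 7.10). It ran from 6.98 to 9.0 in KM (median 7.35), from 6.98 to 9.11 in CU (median 7.31) and from 7.38 to 9.32 in CV (median 8.34). NDUV2 was called lower in SC (−0.74 ± 0.262) and higher in CV (0.52 ± 0.262), and the CV call was lost without CV fish 7. Without SBM fish 5 the value in SBM went from −0.26 to −0.52 and was called lower. NDUA5 had no such interval and was called higher in SBM alone (0.56 ± 0.133), with 6 of 7 fish above the highest FM fish.

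**Figure D3:**
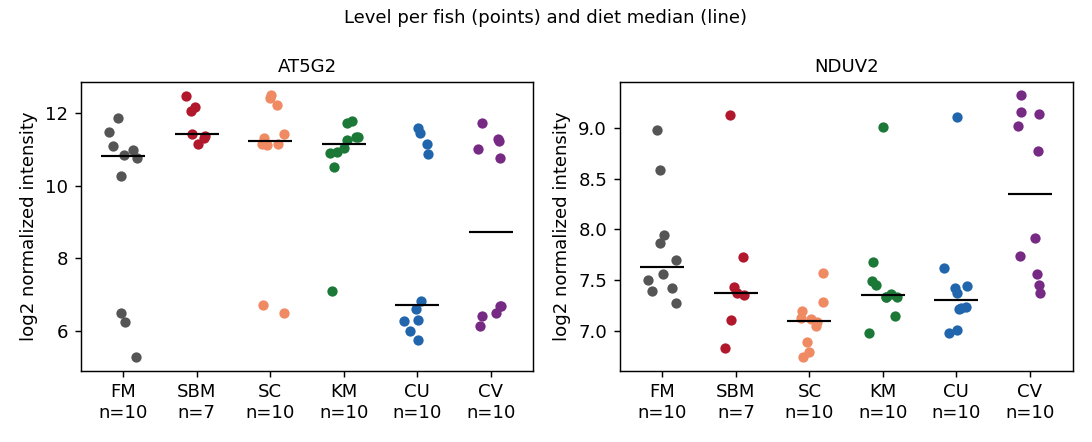
Log2 normalized intensity (vertical axis) of AT5G2 and NDUV2 in each fish (points) by diet, with the diet median as a line. AT5G2 lies in a lower band (5.27 to 7.10) or an upper band (10.27 to 12.48) in every diet but SBM, where all 7 fish are in the upper band, and 5 CV fish have NDUV2 above 8.58.

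Set directly against SBM, the diets with a microbial ingredient differed in the same few genes, and SC in none of the 26. Over all probes 0.307% were called between SC and SBM, 8.71% between KM and SBM, 7.28% between CU and SBM and 10.8% between CV and SBM. These contrasts use the fish by which the genes were chosen and all share the SBM fish, so they are values side by side. HXK2 was lower than in SBM by a log2 FC of −1.14 ± 0.218 in KM, −1.37 ± 0.218 in CU and −1.29 ± 0.218 in CV. F263 was lower by −1.86, −2.85 and −2.71 (SE 0.553) and F262 by −1.16, −0.90 and −0.87 (SE 0.296) in the same order. In the other direction COX42 was higher than in SBM by 0.84, 0.85 and 0.95 (SE 0.141) and F264 by 1.3, 1.39 and 2.36 (SE 0.356) in the same order. FCL was lower than in SBM in KM and CV, HXK1 in CU, and AT5G2 in CU and CV, where the lower band is most frequent.

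The arrays were scanned on 2 days, each with fish of every diet. The difference from FM had the same sign among the fish of the first and of the second scan day in 23 of the 26 genes in SBM, 24 in SC, 19 in KM, 20 in CU and 25 in CV. HXK2 in SBM differed by 1.77 on the first and 1.85 on the second day, COX42 by −1.34 and −1.28, and F263 by 2.17 and 2.46. Larger gaps between the days were seen in SBM for FCL, 0.41 and 0.97, and for HKDC1, 0.65 and 1.51. Called values in other diets also differed between the days, such as F26 in KM, 0.45 and 1.60, and NDUV2 in SC, −0.325 and −1.08.

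Other genes of these pathways carry a gene name here only if they were in the study's lists of differing probes, so they were chosen on these fish as well and are counted without a test. Of 10 further probes of glycolysis, 5 were called higher in SBM, and 2 higher and 5 lower in SC. The higher ones in SBM were both probes of G3P, glyceraldehyde-3-phosphate dehydrogenase (0.74 and 0.69), PGAM1, a phosphoglycerate mutase (0.47), and the second probes of HXK2 and ALDOA. Lower in SC were the enolases ENOA (−0.72) and ENOB (−0.69), pyruvate kinase KPYK (−0.44), PGM1 (−0.43) and the second K6PP probe.

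In the pentose phosphate pathway 6PGD, phosphogluconate dehydrogenase, was higher on both of its probes, by 0.85 and 0.90 in SBM and 0.86 and 0.91 in SC. TALDO, transaldolase, was called higher in SBM (0.47) and TKT, transketolase, in SC (0.54) and KM (0.41).

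All 4 probes of sugar transporters had a lower level in SBM and SC than in FM. SC5A1, the sodium-glucose cotransporter of the brush border in mammals, was lower by −0.60 and −0.57 in SBM and −1.27 and −0.94 in SC on its probes, and GTR8, a facilitative transporter, by −0.77 and −0.58 in SBM and −1.0 and −1.21 in SC. Of these, 3 were called in SBM and 4 in SC, and none in KM, CU or CV.

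Of 12 probes of the citrate cycle and pyruvate dehydrogenase, 7 were called higher and 3 lower in SBM, and 4 higher and 2 lower in SC. ACLY, which makes acetyl-CoA for lipid synthesis from citrate, was higher in all 5 diets, from 1.35 in SBM to 0.83 in CU, as was the aconitase ACON, from 1.19 in SBM to 0.57 in CU. The mitochondrial malate dehydrogenase MDHM was higher by 0.97 and 0.52 in SBM on its probes. SUCB2 and IDHP were lower in SBM (−0.45 and −0.45) and SC (−0.71 and −0.66). The 2 probes of DLDH went opposite ways in SBM, 0.43 and −0.61.

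Among 7 further probes of nucleotide sugar genes 1 was called higher and 2 lower in SBM and 4 lower in SC. GNA1, which acetylates glucosamine phosphate, was higher in SBM (1.40 ± 0.29), and NAGK, which phosphorylates N-acetylglucosamine, was lower in SC (−0.86 ± 0.13). FUCM, a fucose mutarotase, was lower in SBM (−0.45) and SC (−0.58), against the direction of FUK, FPGT and FCL. In the respiratory chain, COX8B, a further subunit of complex IV, was called higher in SBM (0.92), SC (0.77) and CU (0.47), and cytochrome c (CYC) in SBM (0.43). VATE1 of the V-ATPase was higher in SBM (0.42) and CV (0.45).

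Between fish of the same diet high correlations were found both within and between the functional sets. The pairs named were picked from the high end, and no grouping of the genes was tested. Correlations were taken over the deviations of the 57 fish from their diet means, where all genes share the array and its scaling, and are given as a description. Over all pairs of fitted probes the median r was 0.16, among the respiration genes 0.02, among the sugar genes 0.13 and between the sets 0.09. ALDOA and K6PP correlated at 0.77, ALDOA and FUK at 0.73 and FUK and K6PP at 0.69. These 3 genes also had the highest correlations of all members with the mean of the smooth muscle probes, 0.59 for ALDOA, 0.64 for FUK and 0.63 for K6PP. K6PP and ALDOA were called in diets where those probes were highest. FUK was called in these diets and also in SBM, where the mean was 9.75 against 9.63 in FM. The second K6PP probe was lower in SC (−0.66), and the second ALDOA probe was called in SBM and not in SC. The part of muscle tissue in these values was not tested.

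High correlations also linked COX11, CY1 and QCR2 with HXK2. CY1 and QCR2 of complex III correlated at 0.72, COX11 and HXK2 at 0.70, QCR2 and HXK2 at 0.67 and CY1 and HXK2 at 0.62. Their correlations with the skeletal muscle probe KCRM were 0.61 for COX11, 0.58 for CY1, 0.56 for QCR2 and 0.57 for HXK2, and CY1 correlated at 0.61 with the mean of 3 proliferating cell probes. Mean levels of both markers were higher in SBM than in FM, KCRM at 5.53 against 4.89 and the proliferating cell probes at 9.84 against 9.40. KCRM averaged 5.35 in CV, where COX11 was called and CY1, QCR2 and HXK2 were not. Of all members HXK1 had the highest correlation with KCRM. KCRM is a single dim probe and was called in no diet. The proliferating cell mean covers opposite moves. Both CCNB1 probes were called higher in SBM (0.76 and 0.85), while TOP2A differed by −0.28 in SBM and was called lower in SC (−0.42). With the leukocyte mean the correlations were 0.54 for COX11, 0.36 for HXK2 and 0.29 for QCR2, and lower for CY1. With the enterocyte mean those of the same genes were negative, from −0.43 for HXK2 to the weakest, that of COX11. Both of these means were lower in SBM than in FM, 7.45 against 7.81 and 12.19 against 12.54. Each covers opposite moves. In SBM LYSC2, MPEG1 and IGHM were called lower while CD53 differed by 0.35, and among the enterocyte probes K1C18 was called higher. The study reported leukocytes accumulating in the lamina propria of SBM fish, so the leukocyte mean is not read as a number of cells. Of all members ATP6 had the highest leukocyte correlation (0.61) and FPGT the lowest enterocyte correlation (−0.54). The part of these cell types in the result was not tested. Further pairs in this range were COX11 with ALDOC at 0.73 and VATF with FPGT at 0.71. HXK1 and FPGT each correlated with HXK2 at 0.60. COX42 and F264 correlated at 0.56 with each other and at −0.48 and −0.36 with HXK2. For AT5G2 the correlations ran from −0.25 with NDUA5 to 0.26 with FUK.

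**Figure D4:**
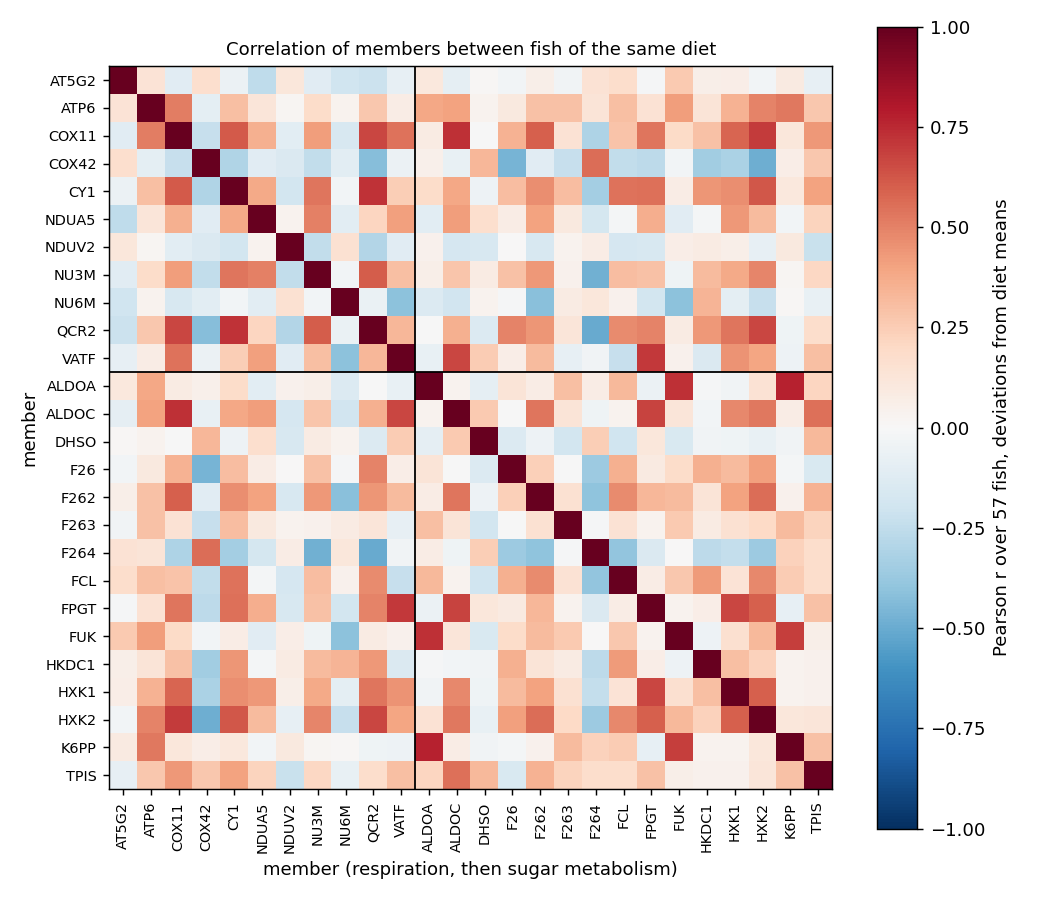
Pearson r (colour, from −1 to 1) between each pair of the 26 genes over the deviations of 57 fish from their diet means, with respiration genes first and black lines between the sets. ALDOA, FUK and K6PP have r from 0.69 to 0.77, and COX11 with ALDOC (0.73), CY1 with QCR2 (0.72) and VATF with FPGT (0.71) lie in the same range.

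What most of the probes nearest to F263 code for is not known here. Of the 5 with the highest correlation over 57 fish, the first was LPHN, a latrophilin (r = 0.92), and the other 4 carry no gene name here (r from 0.91 to 0.92). LPHN was higher than FM by 2.43 in SBM and 1.90 in SC. Nearest to HXK2 after its own second probe were SYYC, a tyrosyl-tRNA ligase (0.89), ACON (0.85) and the arginase ARGI2 (0.85). The neighbours of HXK2 were looked up after its values had been seen.

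The relation between a gene's level and the histology of the same fish within its diet was not used to choose the genes, and it is the one tested here. Every fish was scored for changes in lamina propria and epithelium and for atrophy and oedema, and the sum of these 4 scores ran from 0 in all FM fish to 8 in SBM and SC. In a limma fit with diet as a factor, the slope of HXK2 on this sum was 0.117 ± 0.0305 log2 units per score unit (adjusted p = 0.0774) and that of COX42 −0.0741 ± 0.0198 (adjusted p = 0.0774). Neither passed the threshold of 0.05, and 0% of all 12065 probes did. By limma's unadjusted p under 0.05 there were 2103 probes, of which 6 were members, namely HXK2, COX42, QCR2, F26, F262 and F264. CV fish 7, with a sum of 7, was highest of the CV fish for HXK2 (8.44) and lowest for COX42 (14.44). Without it the slopes were 0.107 (adjusted p = 0.297) and −0.0487 (adjusted p = 0.366).

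**Figure D5:**
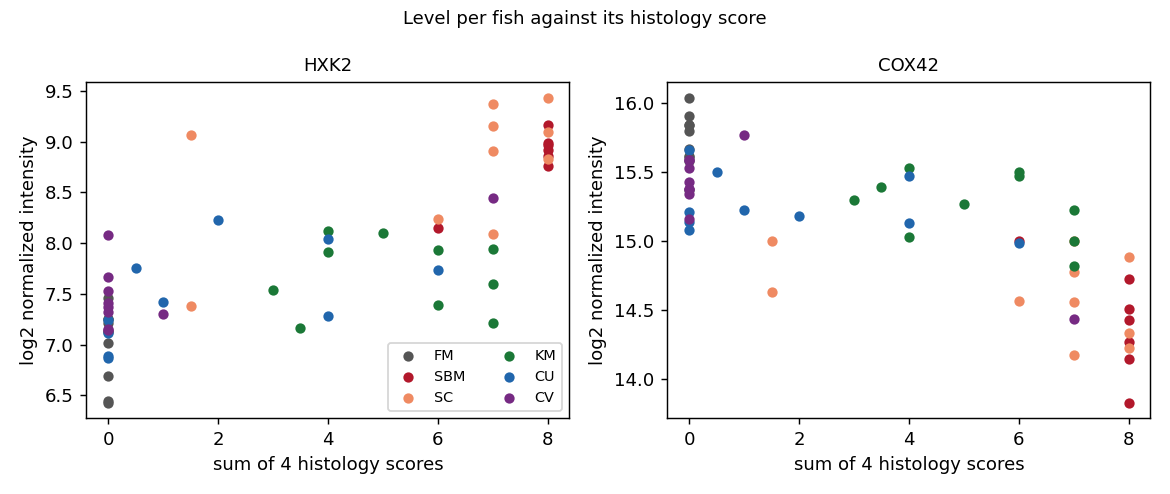
Log2 normalized intensity (vertical axis) of HXK2 and COX42 in each fish against the sum of its 4 histology scores (horizontal axis), coloured by diet. Within diets the fitted slopes are 0.117 for HXK2 and −0.0741 for COX42, neither past the adjusted threshold.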

How the data were processed

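The deposited files hold spot intensities, background-subtracted by Agilent Feature Extraction 10.7.1.1 per the file headers, and a table of log2 values filtered and normalized by the authors. The intensities were the starting point here and the deposited log2 table an alternative. After the study's methods, 536 control spots were removed from the 15377 spots per array, and a spot failing the criteria for signal above background or for uniformity counted as missing (1264 to 3320 per array). Quantile normalization was followed by log2 transformation. Probes missing on over 15% of arrays were dropped, and 4245 values (0.617%) were filled in by the mean of the 10 most similar probes. A single model in limma 3.58.1 (R 4.3.3) covered the 57 arrays, with 5 contrasts against FM, Benjamini-Hochberg adjustment by the nested F-test and a log2 FC limit of 0.4. Contrasts against SBM were adjusted one by one. The histology slope was fitted over all 12065 probes with diet as a factor. The fits were run on simulated data with independent fish and added slopes larger than those of the members. The simulation held no shared tanks or slides, so it checked the code and not their effect. The number of arrays limits the precision, and p-values measure the spread between fish, whose tanks are unknown here.

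The members and gene lists were chosen with earlier results of these data known. Values fish by fish are given for the 4 genes of each set with the largest log2 FC, for the genes of the mitochondrial genome and for few others. Respiratory chain names beginning with CX were kept only where a digit follows, since other such names are not respiratory genes. The lists of the study that give gene names were held in part (1999 of 3791 and 1999 of 2179 lines), so 2331 probes have a name. The list of 2179 lines also set the members and the exclusions. Members or exclusions on its 180 lines not held may therefore be missing. Erythrocyte and pancreas markers had no named probe. The mean log2 level of 4 leukocyte probes was 7.81 in FM, 7.45 in SBM, 7.57 in SC and between 7.68 and 8.00 in the other diets. These probes went different ways. In SBM LYSC2, MPEG1 and IGHM were called lower (−0.85, −0.49 and −0.45), while CD53 differed by 0.35 and was called higher in SC (0.54) and KM (0.45). The mean of 3 proliferating cell probes was 9.40 in FM and 9.52 to 9.84 in the other diets. The skeletal muscle probe KCRM averaged 4.89 in FM and 5.11 to 5.53 in the others. The study's own fold changes and p-values were not used. For normexp, the median spot signal took the place of the planned mean signal, which was not used here. Slide, scan day and fish number were tried as blocks. Matplotlib 3.10.9 drew the figures. Probe sequences are not analysed here. One gene of the pentose phosphate list is not reported here.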

Additional observations from a re-analysis of the deposited data

Results flagged for a closer look

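Of 156 groups of fish (26 genes in 6 diets), 14 held 1 fish far from the others of its diet, that is 8.97%, where chance alone flags about 1 in 20 groups. Among the respiration genes these were AT5G2 in KM fish 5 (7.10, nearest 10.50), ATP6 in SC fish 1 (4.28), COX11 in FM fish 3 (6.89), COX42 in CV fish 7 (14.44, nearest 15.16) and NDUV2 in SBM fish 5 (9.13), KM fish 4 (9.0) and CU fish 10 (9.11). The NDUV2 fish each stood more than 1 log2 unit above the next fish of their diet, which lay between 7.62 and 7.73. Among the sugar genes they were F26 in KM fish 10 (8.68), F262 in CU fish 1 (9.14), F263 in FM fish 6 (8.57), FCL in KM fish 6 (12.14), HKDC1 in SBM fish 4 (7.70), HXK1 in FM fish 3 (3.43) and HXK2 in SBM fish 5 (8.15, nearest 8.76). SBM fish 5 had the lowest sum of histology scores in its diet (6) and CV fish 7 the highest (7). Besides COX11 and HXK1, FM fish 3 was the lowest FM fish for ATP6 (imputed), QCR2, F26, F263 and HKDC1. No fit left out FM fish 3.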

How the results depend on the processing

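None of the 54 called fold changes of the members changed sign under the 15 alternatives. Some alternatives could not change a sign, since another threshold, adjustment or set of diets fitted leaves a fold change as it was. Leaving out a CV or SBM fish likewise changes only the values of that diet. Of the 54 values, 16 moved by at least the within-diet SD of the gene under some alternative. The counts that moved by over 1.5 times are these. With 75th percentile scaling 0 respiration genes were called in CV, and 3 sugar genes in KM and 3 in CV. With normexp the counts were 3 in SC, 1 in KM and 1 in CV for respiration and 7 in SC, 1 in KM and 2 in CV for sugar. With the all-probe median subtracted they were 5 in SBM and 2 in CV for respiration and 2 in CV for sugar. Without a filter on dim spots 2 respiration and 2 sugar genes were called in CV and 1 sugar gene in CU. The deposited table gave 2 respiration and 3 sugar genes in CV. With no limit on the log2 FC 4 respiration genes were called in KM and 2 in CU, and 1 sugar gene in CU. Without FM replicate 6, an alternative chosen after seeing the data, these were 4, 3 and 1, with COX11 and NU3M gained in KM and AT5G2, NU3M and F264 in CU. By construction the offset of normexp compresses dim probes, and the cause of the other moves was not tested.

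Over all probes 1278 were called in CV, against 575 with 75th percentile scaling, 343 with normexp, 548 with the medians taken off, 588 without the dim filter, 634 in the deposited table and 2271 with no limit. The 1347 in KM became 541, 860 and 2200 with normexp, the medians taken off and no limit, and the 647 in CU 333 and 1304 with normexp and no limit and 144 with only FM and CU fitted. Normexp gave 1786 in SBM and 1677 in SC, against 2690 and 2715. With the medians taken off 2338 were called in SBM. Without FM replicate 6 there were 1526 in KM and 711 in CU. The fit without the dim filter called 685 of 14841 probes in CU.

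The labels do not tie fish of the same number in different diets to each other. Of 135 such pairs 48 had residuals correlating over 0.1 (median r = 0.05, against −0.01 for pairs of different numbers). Of the 57 fish, 19 correlated best with a fish of their own number, a hint from the data and not from the design. How many fish or pairs would reach this by chance was not computed. Pairs of different diets on the same slide had a median r of 0.09, against −0.01 on different slides. The part of the slide in the correlation of equal numbers was not tested. Calls with fish number as a replicate block were set against calls without it in SBM, SC, KM, CU and CV, in this order. Respiration genes called were 8, 5, 2, 1 and 5, against 8, 6, 2, 1 and 5. Sugar genes called were 10, 12, 7, 0 and 5, against 10, 11, 6, 0 and 5. Over all probes the block called 2708, 2737, 1416, 669 and 1343, against 2690, 2715, 1347, 647 and 1278. No member passed the histology slope test under any of the 7 alternatives, and HXK2's adjusted p ran from 0.0503 with the replicate block to 0.508 over KM, SC and CU fish only. Signal over background limits dim members such as HXK1, HKDC1, F26, ALDOC and ATP6, whose called values under normexp were no longer called.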
